A study of Homo sapiens with 2 samples.

Results

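Metallothioneins are small cysteine-rich proteins that bind zinc, copper and cadmium, and MTF1 is the zinc-sensing transcription factor that switches their genes on. When free zinc rises in the cell, MTF1 enters the nucleus and binds short sequences called metal response elements in the promoters of the MT1 and MT2 genes and of the zinc exporter gene SLC30A1. The MT1 and MT2 genes lie together on chromosome 16 and are also switched on by cadmium, glucocorticoids and oxidative stress. The genes described here are MT2A, MT1E, MT1F, MT1G, MT1X and MTF1, chosen by name with earlier results of these data known, 6 genes in all. The deposited table lists 3 of them, MT2A, MT1X and MTF1, among 10987 genes. MT1E, MT1F and MT1G have no row in it, so they were not analysed here. Of 15 further metallothionein genes and pseudogenes that were looked for, 1 was listed, MT1A.

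RNA sequencing compared 2 libraries labelled THP1, an established human monocytic leukaemia line labelled as coming from blood. The cells of 1 library were treated for 24 h with bort (bortezomib, a drug that blocks the proteasome and so slows the breakdown of ubiquitin-tagged proteins), and the cells of the other were untreated. The concentration used for these cells is not given in the sources used here. With 1 library per condition there is no replicate check and no p-value, and each value below describes these libraries and not the conditions. Values are FPKM, fragment numbers divided by transcript length and by the size of the library, which sum to 210026 in the untreated and 221529 in the bort-treated library. How many reads were sequenced is unknown, and no counting error is therefore given. The lowest level that a gene had in its higher library was 0.501 FPKM. The markers of the labelled cell type were low. All 8 erythroid markers looked up were listed, with a summed level of 2952 FPKM in the untreated and 2713 FPKM in the bort-treated library. Of the monocytic and myeloid markers, 3 of 8 were found, with sums of 13.8 and 49.8 FPKM, and CD14, CSF1R, MPO, FCGR1A and CSF3R were not. HBG1, a fetal haemoglobin gene, was at 1487 and 1536 FPKM. The high erythroid and low monocytic levels contradict the labelled cell type, so THP1 is used here as a label only. In bulk RNA, fewer cells of a type and less RNA per cell cannot be told apart.

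RefSeq promoters (GRCh38.p14) were found for 3 of the 6 genes, MT2A, MT1X and MTF1. The 250 bases before the start of the 2 listed metallothionein genes, chr16:56608334-56608583 for MT2A and chr16:56682220-56682469 for MT1X, both on the plus strand, are given here because they carry matches to the element that MTF1 recognises. Capitals mark matches to the core of the metal response element, TGCACNC or TGCGCNC, on either strand.
MT2A: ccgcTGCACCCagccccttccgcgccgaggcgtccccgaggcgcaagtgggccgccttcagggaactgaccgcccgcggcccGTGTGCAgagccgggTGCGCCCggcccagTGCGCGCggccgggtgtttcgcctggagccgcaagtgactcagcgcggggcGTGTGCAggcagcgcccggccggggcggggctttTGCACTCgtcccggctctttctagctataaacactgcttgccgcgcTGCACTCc
MT1X: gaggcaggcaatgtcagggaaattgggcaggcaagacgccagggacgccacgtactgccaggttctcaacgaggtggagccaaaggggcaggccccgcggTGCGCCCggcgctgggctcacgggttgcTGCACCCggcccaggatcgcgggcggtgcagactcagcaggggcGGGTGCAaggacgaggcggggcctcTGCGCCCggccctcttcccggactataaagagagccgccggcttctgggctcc

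MT2A held 7 cores in this window and MT1X held 4. Among 35116 promoters of the same length, 0.0313% held 7 or more cores, 0.370% held 4 or more, and 24.8% held at least 1. No core overlapped another within either promoter. In MT2A the first bases of the cores lay at -246, -168, -153, -139, -88, -54 and -8, counted back from the start. In MT1X they lay at -150, -122, -78 and -53. Both genes thus have a core at nearly the same place upstream of the start, at -54 in MT2A and at -53 in MT1X. The antioxidant response element core TGACNNNGC, a site of NRF2-type factors, stood once in each promoter, at -104 in MT2A and at -243 in MT1X, and 10.9% of all promoters held at least 1. The match in MT2A overlaps a match to the AP-1 core TGANTCA at -104, which MT1X did not hold and 6.57% of promoters did. The MTF1 promoter held no match to any of these motifs, and 75.2% of all promoters likewise held 0 metal response cores. The promoter of SLC30A1 held 1 metal response core. MT1H held 8 cores and MT1B and MT4 held 3 each, and none of these 3 genes was listed in the table. The GC content of the window was 73.2% in MT2A and 70.0% in MT1X and MTF1, and the shares of promoters given here were not taken at equal GC content. A match is a description of letters and not evidence of binding in these cells.

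**Figure D1:**
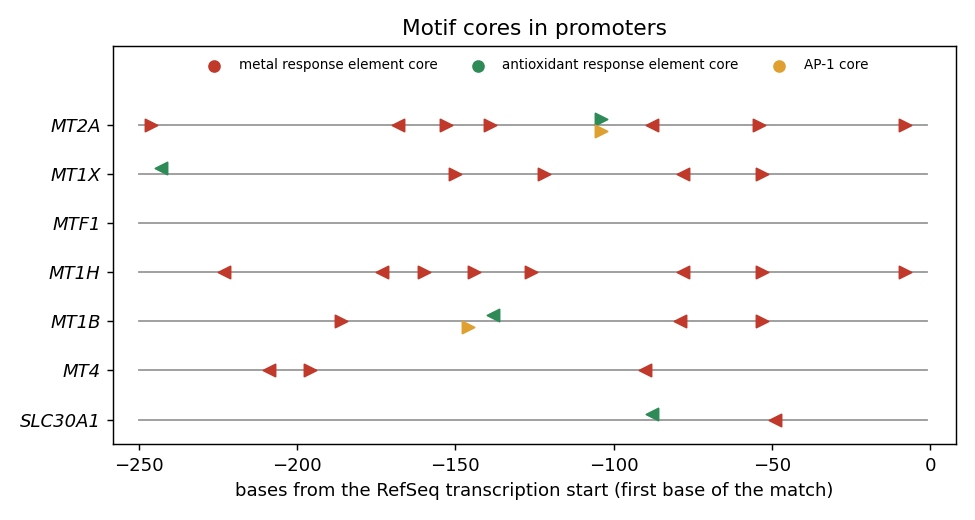
Positions of motif cores in the 250 bases before the RefSeq transcription start; the x axis gives bases from the start and each line is 1 gene. Arrowheads mark the first base of a match and point right for the plus and left for the minus strand relative to the gene. MT2A carries 7 metal response element cores, MT1X carries 4 and MTF1 carries 0.

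Among the listed genes, MT2A was the metallothionein with the most RNA in both libraries and the member with the largest difference. MT2A (ENSG00000125148.6_2) had 5.62 FPKM without and 14.7 FPKM with bort, 2.62 times as much. On the log2(FPKM + 1) scale, which is used for every difference here and understates those of low genes, it was higher by 1.25. MT1X (ENSG00000187193.8_3), which encodes a close relative of the MT2A protein, was at 1.79 FPKM and 2.77 FPKM, a log2 difference of 0.43. Both listed metallothionein members were thus higher in the bort-treated library, and MT2A alone passed 2-fold. MT1A (ENSG00000205362.11_3), another MT1 gene of the cluster, had 0.586 FPKM without bort and was listed at 0 with it. A total of 21 genes were listed at 0 in the untreated and 28 in the bort-treated library, and how many reads stand behind 0.586 FPKM is unknown.

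**Figure D2:**
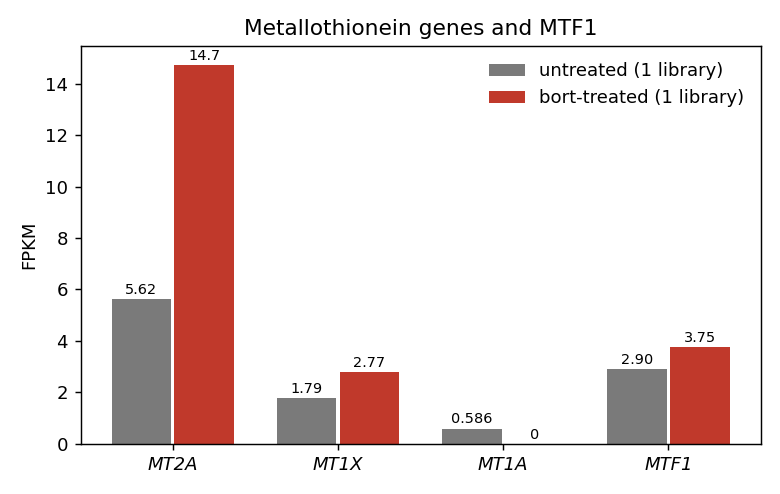
FPKM of MT2A, MT1X, MT1A and MTF1 in the untreated (grey) and the bort-treated (red) library, 1 library each, so there are no error bars. MT2A goes from 5.62 to 14.7 FPKM, MT1X and MTF1 are higher by less than 2-fold, and MT1A is listed at 0 in the bort-treated library.

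MTF1 (ENSG00000188786.9_2), the transcription factor, was at 2.90 FPKM in the untreated and 3.75 FPKM in the bort-treated library, a log2 difference of 0.28 and short of 2-fold. The order of levels in the untreated library was MT2A, MTF1, MT1X and MT1A, and it was the same in the bort-treated library. Without replicates, no neighbours in this order can be set against a spread. FPKM is scaled by transcript length but not by GC content or for stretches shared between genes, so ratios between genes are approximate. MT2A was at 1.94 times the level of MTF1 in the untreated library and at 3.93 times in the bort-treated library. Against MT1X the ratio was 3.14 and 5.32. The RNA of the factor therefore differed by less than the RNA of its target MT2A.

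The summed level of the 3 listed metallothionein genes was 8.001 FPKM in the untreated and 17.5 FPKM in the bort-treated library, a ratio of 2.19. Reads given to metallothionein genes with no row in the table are not part of it. It was 0.00381% of the FPKM of all genes in the untreated and 0.00791% in the bort-treated library. MT2A made up 70.3% of the sum in the former and 84.2% in the latter. RNA of the listed metallothionein genes was therefore a small part of either library, and that of genes with no row is unknown. MT2A ranked 5600 of 10987 genes by FPKM in the untreated library and 2650 in the bort-treated library.

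Against all genes, 1 of the 3 listed members was higher by 2-fold or more and 0 were lower. Of all 10987 genes 8.08% were higher by 2-fold or more (888 genes) and 10.2% were lower (1125 genes). The split between higher and lower genes depended on scaling, with 1100 higher and 931 lower after scaling by the total that leaves out the 20 genes of highest FPKM, and 1092 and 934 with the upper quartile. All 3 members lay between 1 and 10 FPKM in the untreated library, and of the 5768 genes in that range 9.97% passed 2-fold upward and 6.41% downward. A total of 493 genes had a larger log2 difference than MT2A, 3023 had a larger one than MT1X and 3857 a larger one than MTF1. The middle 50% of genes lay between -0.50 and 0.49, a range that holds MT1X and MTF1 but not MT2A.

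**Figure D3:**
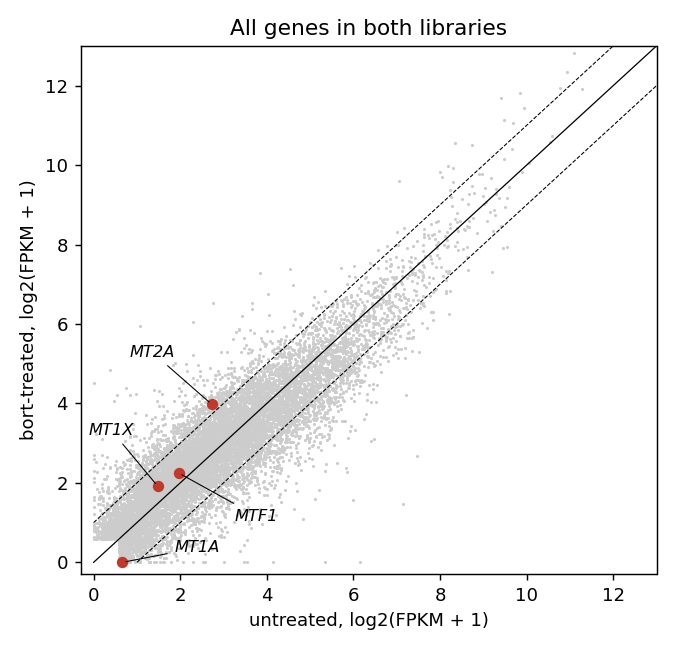
Each grey point is 1 of 10987 genes, with log2(FPKM + 1) of the untreated library on the x axis and of the bort-treated library on the y axis; the solid line marks equal values and the dashed lines 2-fold. MT2A lies above the upper dashed line, MT1X and MTF1 lie between the solid and the upper dashed line, and MT1A lies on the x axis.

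The differences of all genes followed the GC content of their transcripts, with a Spearman correlation of -0.47 over 10907 genes, which is a description across genes of 2 libraries. MT2A went against this trend. The transcripts of MT2A in GENCODE 29 have a mean GC content of 55.7%, and among the 1091 genes in the same of 10 equal bins by GC content the median log2 difference was -0.25, with 4.31% past 2-fold upward and 11.3% downward. With the trend removed, the log2 difference of MT2A was 1.49. MT1X, at 52.5% GC, went to 0.56. MTF1 has transcripts of lower GC content, at 46.9%, and the genes of its bin had a median log2 difference of 0.20. Its own log2 difference was 0.11 with the trend removed.

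Because metallothionein genes resemble each other, stretches of their transcripts were looked up in the transcripts of all other genes of GENCODE 29. Of the stretches of 50 bases in MT2A, 3.02% also stood in another gene, most of them in MT1G, and of those of 100 bases 0% did. MT1X shared 18.3% of its stretches of 50 bases and 11.3% of those of 100 bases. Those of 100 bases were shared with AC026461.1, a gene that overlaps MT1X on the same strand and was not listed in the table, so the value of MT1X is the less certain. MT1A shared 5.76% of its stretches of 50 bases, and MTF1 shared 0.640%. No other gene overlaps MT2A in this annotation. AL929472.4, which was not listed either, lies antisense to MTF1. The read length is not given in the sources used here. The longest transcripts were 903 bases for MT2A, 1727 bases for MT1X and 396 bases for MT1A against 7972 bases for MTF1, so FPKM of the metallothioneins rests on fewer fragments per unit of level.

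By closeness over the 2 values of log2(FPKM + 1), the genes most like MT2A were TBPL1, at 5.49 and 14.9 FPKM in the untreated and bort-treated library, TAF9B, at 5.45 and 15.3 FPKM, and ATF2, at 5.32 and 14.7 FPKM. Their distances from MT2A were 0.032, 0.062 and 0.068 on that scale. MPPE1, KLHL8 and KLHL42 were nearest to MT1X, with distances of 0.0067, 0.017 and 0.025. ZBTB4, DTD2 and NT5DC1 were nearest to MTF1, with distances of 0.015, 0.023 and 0.028. With 2 libraries such closeness says only that the genes had like levels in each.

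The genes that move zinc were compared next. Counts past 2-fold in this and the following lists stand beside shares of 8.08% higher and 10.2% lower over all genes. Zinc exporters of the SLC30 family carry zinc out of the cytosol, and importers of the SLC39 family carry it in. Of 11 exporter genes 9 were listed, of which 1 passed 2-fold upward and 0 downward, with a median log2 difference of 0.26 against 0.0049 over all genes. The median turned to -0.069 with the GC trend removed. SLC30A1, the exporter of the plasma membrane that MTF1 is known to switch on, was at 5.91 FPKM in the untreated and 4.94 FPKM in the bort-treated library, a log2 difference of -0.22. It was thus on the other side of 0 from MT2A. SLC30A1 was below 0 under all 8 other settings of scaling, pseudocount, filter and GC content, with values from -0.76 to -0.12. No pseudocount or filter can change the sign of a difference, so only the scalings and the removed GC trend could have turned it. The -0.22 of SLC30A1 lay between the lower and upper quartiles of all genes, -0.50 and 0.49. SLC30A6, a subunit of an exporter complex of the secretory pathway, went from 2.72 to 9.65 FPKM, the largest rise of the family at 1.52. Its partner SLC30A5 was at 8.28 and 11.9 FPKM. SLC30A4, which loads vesicles, had the most negative difference on this scale at -0.58, from 0.732 to 0.161 FPKM. It was listed through its untreated level alone, and its difference ran from -2.18 to -0.55 over the other settings. Without a pseudocount another exporter gene, SLC30A2, was the most negative.

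Of 14 importer genes 11 were listed, of which 1 passed 2-fold upward and 3 downward, with a median of -0.31. SLC39A3 went from 38.9 to 8.13 FPKM, a log2 difference of -2.13, and overlaps AC006538.2 on its strand, so its value is uncertain. SLC39A4, the importer known for uptake of dietary zinc, went from 9.15 to 2.81 FPKM, and SLC39A11 from 3.43 to 1.04 FPKM. SLC39A14, an importer of zinc and of iron known to be raised by ER stress, went the other way, from 8.48 to 18.6 FPKM, a log2 difference of 1.05. SLC39A7, which releases zinc from the endoplasmic reticulum, was the most abundant at 130.9 and 71.5 FPKM and was lower by less than 2-fold. With the GC trend removed SLC39A4 was at -0.80 and SLC39A11 at -0.92, short of 2-fold, while SLC39A8 passed it at -1.07.

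Copper is the other metal that metallothioneins buffer. All 13 copper genes were listed, of which 0 passed 2-fold upward and 1 downward, with a median of -0.15. The gene past 2-fold was SCO2, a copper chaperone of cytochrome oxidase, from 14.6 to 5.89 FPKM. It overlaps TYMP on its strand, and with the GC trend removed its log2 difference was -0.57. COX19, which serves the same enzyme, had the largest positive difference at 0.69, from 3.01 to 5.44 FPKM, and overlaps ADAP1. The copper importer gene SLC31A1 was at 12.03 and 12.9 FPKM. SOD1, a cytosolic enzyme that holds copper and zinc, was at 237.2 and 376.9 FPKM.

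Of 5 proteins known to work with MTF1 at promoters, 0 genes passed 2-fold upward and 1 downward. SP1 was at 7.19 and 6.78 FPKM, and the acetyltransferase gene EP300 was at 5.11 and 5.52 FPKM. HIF1A was at 4.28 and 6.14 FPKM, a log2 difference of 0.44, which was 0.012 with the GC trend removed. SMARCA4, the motor of a chromatin remodelling complex, went from 42.2 to 16.1 FPKM, a log2 difference of -1.33, which was -0.99 with the GC trend removed.

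Genes of the response to metals and oxidants were mostly higher in the bort-treated library. Of 15 on the list 13 had a row, of which 8 were past 2-fold upward and 1 downward, with a median log2 difference of 1.34. By direction alone 9 of the 13 were higher and 4 lower. TXNRD1 and SRXN1, further oxidant-response genes of the list, stayed within 2-fold. The list was chosen with earlier results of these data known, so its direction is no independent evidence. GCLC and GCLM encode the subunits of the enzyme that begins glutathione synthesis. GCLC went from 1.76 to 5.96 FPKM, and GCLM from 5.99 to 25.3 FPKM. SLC7A11, which imports cystine for the same pathway, had the largest rise at 2.32, from 0.656 to 7.26 FPKM. NQO1, a quinone reductase, went from 15.8 to 46.2 FPKM. The ferritin genes FTL and FTH1, which encode the store of iron, went from 2191 to 7304 FPKM and from 297.2 to 663.8 FPKM. The heat shock genes HSPA1A and HSPA1B went from 290.1 to 1015 FPKM and from 265.3 to 837.9 FPKM, and these are near-identical, so the division of reads between them is uncertain. SLC40A1, the iron exporter gene, went from 5.70 to 1.69 FPKM. The selenoprotein genes SELENOW and SELENOH were at 12.5 and 8.92 FPKM and at 45.7 and 33.5 FPKM. HMOX1 and PGF were not listed.

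Glucocorticoids are also known inducers of MT2A. Of 7 glucocorticoid-responsive genes 5 were listed, of which 2 passed 2-fold upward and 0 downward, with a median of 0.75. TSC22D3 and ZBTB16 were not listed. DUSP1, a phosphatase of MAP kinases, went from 9.74 to 71.9 FPKM, a log2 difference of 2.76, and SGK1, a kinase, from 0.484 to 3.25 FPKM. The untreated level of SGK1 lay under 0.501 FPKM, the lowest higher level of any gene. SGK1 was thus listed through its bort-treated level alone, and a gene listed that way can only be higher there. FKBP5, a chaperone partner of the glucocorticoid receptor, was at 10.1 and 11.1 FPKM, the smallest difference of the list at 0.12. With the GC trend removed the difference of FKBP5 was -0.22. PER1, a clock gene, was at 4.50 and 5.45 FPKM.

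Of the neighbours of the metallothionein cluster on chromosome 16, 6 of 10 were listed. HERPUD1 alone passed 2-fold, and the median was 0.061, which turned to -0.26 with the GC trend removed. HERPUD1, which serves the degradation of proteins of the endoplasmic reticulum, went from 4.28 to 30.02 FPKM, a log2 difference of 2.56. NUP93, a gene of the nuclear pore, had the most negative difference at -0.53, from 12.8 to 8.56 FPKM. OGFOD1 was at 18.8 and 19.2 FPKM, NUDT21 at 22.8 and 24.3 FPKM and BBS2 at 0.838 and 0.777 FPKM.

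Markers of cell type differed between the libraries as well. The erythroid factor gene GATA1 was at 161.3 FPKM in the untreated and 48.7 FPKM in the bort-treated library, and the myeloid marker LYZ at 7.61 and 28.7 FPKM. Their part in the difference of MT2A was not tested.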

How the data were processed

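Total RNA of 1 bort-treated and 1 untreated culture labelled THP1 was sequenced by the authors, who describe poly-A selection and a stranded KAPA kit, whereas the labels name a TruSeq kit. Trimmed reads were mapped by the authors with HISAT2 2.0.4 and assembled with StringTie 1.2.3, and they deposited FPKM per gene. The submitters' processing notes name GRCh37. Too few values were low (121 and 119 genes between 0 and 0.2 FPKM) to recover the value of 1 read, so depth is unknown. Differences were computed as log2(FPKM + 1), bort-treated minus untreated, and a gene was called at 2-fold. No test was run. In 7 cases a symbol occurs on 2 identifiers, and the first was used. The members and lists were chosen with earlier results of these data known. Genes named are the members, listed metallothioneins, in each list the extremes in either direction and those past 2-fold, and the 3 genes nearest to each member. Other genes of the lists, the markers, the AP-1 motif and the range of 1 to 10 FPKM were chosen after values were seen. GC content was the mean over a gene's transcripts in GENCODE 29 (99.3% of genes matched), and its trend was removed by lowess with a span of 0.3. The level of 1 gene of the lists is not reported here. Promoters came from RefSeq (GRCh38.p14). Calculations were tested on simulated data. The software was statsmodels 0.14.6 for lowess, matplotlib 3.10.9 for plots, and pandas 2.3.3, numpy 2.4.6 and scipy 1.17.1 under Python 3.11.15.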

Additional observations from a re-analysis of the deposited data

How the results depend on the processing

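MT2A stayed past 2-fold under all 8 other settings of pseudocount, scaling, GC content and filter (1.24 to 1.49), and MT1X (0.43 to 0.63) and MTF1 (0.11 to 0.37) stayed higher and short of it. A smaller or no pseudocount can only enlarge a difference, and the filter leaves these values as they were. Only the scalings and the removed GC trend could thus have brought MT2A under 2-fold or turned MT1X or MTF1 below 0. The ratio of the metallothionein sum was 2.18 to 2.37 under 3 other scalings. At 4-fold, 0 metallothioneins were higher. MT1A, listed at 0 in the bort-treated library, made 1 metallothionein lower with pseudocounts of 0.1 and 0.5 FPKM and at 1.5-fold, and has no value without a pseudocount or under the filter of 1 FPKM in both. Of the 62 listed genes on the 7 lists, 13 were higher and 6 lower by 2-fold, against 8.08% and 10.2% of all genes. Of the 13, 8 were metal and oxidative stress genes. On the lists 3 genes were lower with the GC trend removed, 11 were lower at 1.5-fold, and 3 were higher and 1 lower at 4-fold. Removing the GC trend turned the medians of the zinc exporters (-0.069), the MTF1 partners (-0.058) and the cluster neighbours (-0.26) below 0. The median of all genes was -0.00061 with the median of ratios, -0.0043 with the GC trend removed and -0.0044 under the filter of 1 FPKM in both. Over all genes 1576 were higher with a pseudocount of 0.1 FPKM, 1654 were higher and 1708 lower with none, 712 were lower once the GC trend was taken out, 2282 went up and 2378 down at 1.5-fold, and 92 and 135 at 4-fold. Beyond what a threshold, a pseudocount or the removed trend does by construction, the cause was not tested. The promoter of MT2A held 8 metal response cores over the 300 bases that run past the start, and those of MT1X and MTF1 held 4 and 0. No paired analysis was possible because there is 1 library for either condition, and leaving a library out would leave no comparison. The part of counting error in differences at low FPKM cannot be given without the depth.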
